A study of Drosophila melanogaster with 9 samples.

Results

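The proteasome subunit genes of Drosophila melanogaster were followed in the midgut of larvae that were fed, given a wheat lectin or starved. Genes were taken as members where the symbol begins with Prosalpha or Prosbeta, or with Rpn or Rpt followed by a digit. The reference table of gene symbols holds 48 such genes, of which 32 are the general subunits and 16 are paralogs whose symbol carries a further R or T. A probe set of their own was found for 39 of the 48 (26 subunits and 13 paralogs), out of 10843 genes measured in this way. Of these 39, 30 were bright enough to be tested (all 26 subunits and 4 paralogs), out of 7904 genes tested. Prosalpha1 and Prosalpha1R share 1 probe set and were left out by the rule, and Prosbeta1, Prosbeta5R2, Rpn9, Rpn10, Rpt1, Rpt6 and Rpt6R have no probe set in the annotation used here.

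All larvae were of the strain W1118 and of the third instar, and each of the 3 groups had 3 arrays, each with RNA from a pool of 50 midguts. Control larvae were labelled 120 h old, with 12 h in a normal state. The lectin group was labelled 108 h old (108 to 110 h for replicate 1) and then fed for 12 h on food holding 1% WGA (wheat germ agglutinin), which binds N-acetylglucosamine and chitin. The starved group was labelled 108 h old and then spent 12 h without food. The error terms therefore describe the spread between pools, and a difference in age from the controls cannot be told apart from treatment if the ages are read as ages at dissection.

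The proteasome is the large protease that degrades proteins tagged with ubiquitin. Its core particle is a barrel of alpha rings, which form the gate, and beta rings, of which Prosbeta1, Prosbeta2 and Prosbeta5 carry the proteolytic sites. The regulatory particle that caps it has a base, with the ring of Rpt ATPases that unfold substrates and the scaffold and ubiquitin receptor subunits Rpn1, Rpn2, Rpn10 and Rpn13, and a lid, in which Rpn11 removes ubiquitin. In Drosophila many subunits have a second gene expressed in the testis, and the general genes are controlled together by the transcription factor cap-n-collar (cnc).

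The deposited signals of an array summed to between 909028 and 1457246, and precision is limited by the 3 arrays of each group. All values below are log2 signals after quantile normalisation, and changes are log2 differences ± SE of a limma fit to all 9675 tested probe sets, with n = 3 arrays per group and p-values adjusted by Benjamini-Hochberg. A gene is said to rise where the adjusted p is under 0.05. Of the listed midgut genes, the smooth septate junction genes mesh, Ssk and Tsp2A and the protease gene Jon65Aiv were above the filter on every array, with 7.71 for mesh on control replicate 1 as the lowest and 12.76 for Jon65Aiv on starvation replicate 2 as the highest value. The proton pump subunit gene Vha100-4 and the trypsin gene alphaTry were also above it throughout, at 6.35 to 8.11 and 7.04 to 9.67, whereas betaTry lay around it at 2.01 to 4.20. None of the 3 neuronal markers (elav, nSyb and brp) passed the filter on dim probe sets, nor did 4 of the 5 salivary gland glue genes measured. The normalised signals of the fat body markers Lsp2, Fbp1 and Fbp2 together came to between 212 and 274 in controls, between 174 and 305 with WGA, and to 144, 900 and 865 on starvation replicates 1, 2 and 3. In whole midguts, fewer cells of a type and less RNA per cell cannot be told apart.

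The first question was how the subunit genes respond to the lectin. Between the WGA and control groups, 24 of the 26 subunits tested rose and 0 fell, with a median log2 change of 1.01 (a 2.02-fold rise) and a range from 0.47 to 1.43. Among all tested probe sets 11.6% rose, 10.1% fell and the median change was 0.03. The 3 WGA arrays lay above the 3 control arrays for 26 of 26 subunits, against 20.5% of all tested probe sets. All 12 core subunits rose (median 1.15), and so did 12 of the 14 regulatory subunits (median 1.00). The 2 that did not pass the test were Rpt3, at 0.47 ± 0.21 (adjusted p = 0.149), and Rpn2, at 0.48 ± 0.21 (adjusted p = 0.137). The median of all 30 tested members, paralogs included, was 1.00.

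**Figure D1:**
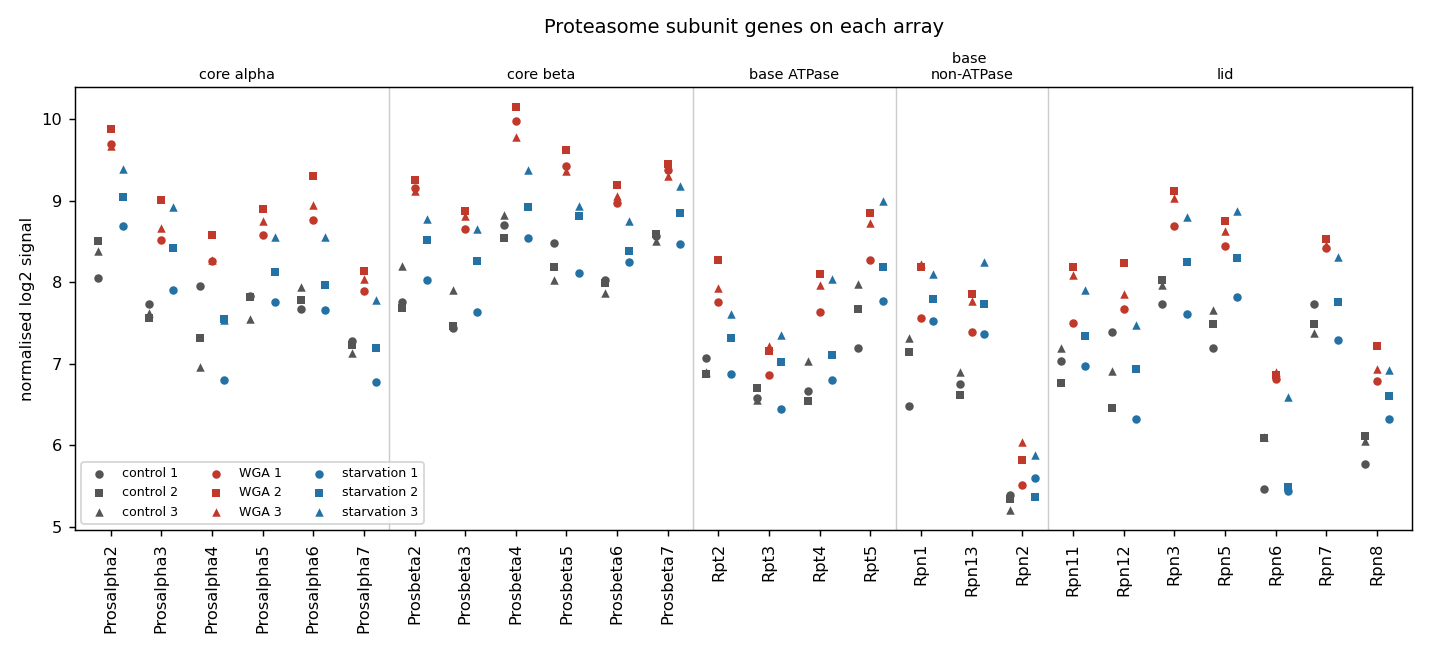
Normalised log2 signal (vertical axis) of each of the 26 subunit genes (horizontal axis, grouped by position in the proteasome) on each of the 9 arrays, with colour for the group and symbol for the replicate. The WGA points lie above the control points for all 26 genes. The starvation points lie above all control points for 7 genes and below all WGA points for 14. Heights of different genes are of different probe sets and are not to be compared.

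Among the alpha subunits of the core, 6 of 6 rose after WGA, with a median of 1.05. Prosalpha2 was at 8.05, 8.51 and 8.39 on the control arrays, 9.70, 9.88 and 9.67 after WGA and 8.70, 9.05 and 9.39 after starvation. Its change after WGA, 1.43 ± 0.18 (adjusted p = 6.22e-05), was the largest of the 26 subunits, and the starved arrays lay between both other groups without overlap. Prosalpha6 was at 7.67, 7.78 and 7.95 on the control arrays, 8.76, 9.30 and 8.95 after WGA and 7.66, 7.96 and 8.56 after starvation, a change of 1.20 ± 0.21 (adjusted p = 0.00104). Prosalpha3, whose N-terminal tail closes the gate of the core in yeast, was at 7.73, 7.56 and 7.62 on the control arrays, 8.52, 9.01 and 8.67 after WGA and 7.90, 8.43 and 8.92 after starvation. It rose by 1.09 ± 0.22 (adjusted p = 0.00263), and starvation replicate 3 lay inside the range of the WGA arrays. Prosalpha5 was at 7.83, 7.82 and 7.55 on the control arrays, 8.58, 8.91 and 8.76 after WGA and 7.75, 8.13 and 8.56 after starvation, and rose by 1.01 ± 0.19 (adjusted p = 0.00164). Prosalpha4 was at 7.96, 7.32 and 6.96 on the control arrays, 8.26, 8.58 and 8.27 after WGA and 6.80, 7.55 and 7.53 after starvation. Its control arrays were the most spread of the alpha subunits, and the rise of 0.96 ± 0.25 had adjusted p = 0.0147. Prosalpha7 was at 7.28, 7.23 and 7.13 on the control arrays, 7.89, 8.14 and 8.04 after WGA and 6.78, 7.19 and 7.79 after starvation, with the smallest alpha change, 0.81 ± 0.21 (adjusted p = 0.0144), and still no overlap between WGA and control. A dimmer probe set of Prosalpha7 passed the filter level on only 1 of 9 arrays and was not tested.

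Among the beta subunits 6 of 6 rose after WGA, with a median of 1.21. Prosbeta2, which carries the trypsin-like site, was at 7.76, 7.68 and 8.20 on the control arrays, 9.16, 9.25 and 9.12 after WGA and 8.03, 8.52 and 8.78 after starvation. The WGA arrays lay close together, above all others, and the rise was 1.29 ± 0.19 (adjusted p = 0.000256). Prosbeta5, which carries the chymotrypsin-like site, was at 8.48, 8.19 and 8.03 on the control arrays, 9.42, 9.63 and 9.36 after WGA and 8.11, 8.82 and 8.94 after starvation, a rise of 1.24 ± 0.20 (adjusted p = 0.000565). The noncatalytic Prosbeta4 was at 8.70, 8.55 and 8.83 on the control arrays, 9.98, 10.14 and 9.79 after WGA and 8.54, 8.92 and 9.38 after starvation. It rose by 1.28 ± 0.19 (adjusted p = 0.000254), and its starved arrays overlapped the controls. Prosbeta3 was at 7.45, 7.47 and 7.91 on the control arrays, 8.65, 8.88 and 8.82 after WGA and 7.64, 8.26 and 8.66 after starvation, a rise of 1.18 ± 0.22 (adjusted p = 0.00176). Prosbeta6 was at 8.03, 7.99 and 7.87 on the control arrays, 8.98, 9.20 and 9.06 after WGA and 8.25, 8.39 and 8.75 after starvation. With the smallest standard error of the group, it rose by 1.12 ± 0.15 (adjusted p = 0.000121). A dimmer probe set of Prosbeta6 had a change of 1.09 ± 0.56 that did not pass the test (adjusted p = 0.20). Prosbeta7 was at 8.57, 8.59 and 8.51 on the control arrays, 9.38, 9.46 and 9.30 after WGA and 8.47, 8.85 and 9.18 after starvation, with the smallest beta change, 0.82 ± 0.16 (adjusted p = 0.00249).

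In the base of the regulatory particle, 5 of 7 subunits rose after WGA. Of the ATPases, Rpt2 was at 7.07, 6.87 and 6.90 on the control arrays, 7.75, 8.28 and 7.93 after WGA and 6.87, 7.32 and 7.62 after starvation, a rise of 1.04 ± 0.20 (adjusted p = 0.00188). Rpt4 was at 6.67, 6.55 and 7.04 on the control arrays, 7.64, 8.10 and 7.97 after WGA and 6.81, 7.11 and 8.04 after starvation. It had the largest change of the base, 1.15 ± 0.27 (adjusted p = 0.00711), and starvation replicate 3 lay among its WGA arrays. Rpt5 was at 7.19, 7.68 and 7.98 on the control arrays, 8.27, 8.86 and 8.72 after WGA and 7.77, 8.19 and 9.0 after starvation, a rise of 1.00 ± 0.28 (adjusted p = 0.0216). Rpt3 was at 6.58, 6.71 and 6.55 on the control arrays, 6.86, 7.16 and 7.22 after WGA and 6.44, 7.02 and 7.35 after starvation. Its WGA arrays did not overlap the controls, but starvation replicate 3 was higher than all of them. Of the other base subunits, Rpn1, a scaffold that binds ubiquitin and its shuttle proteins, was at 6.48, 7.15 and 7.32 on the control arrays, 7.56, 8.19 and 8.23 after WGA and 7.53, 7.79 and 8.10 after starvation, a rise of 1.01 ± 0.24 (adjusted p = 0.00854). Rpn13, a ubiquitin receptor, was at 6.75, 6.62 and 6.90 on the control arrays, 7.39, 7.85 and 7.77 after WGA and 7.37, 7.73 and 8.25 after starvation. It rose by 0.91 ± 0.21 (adjusted p = 0.00729), and both treated groups lay above the controls without overlap. Rpn2, the scaffold that holds Rpn13, was at 5.39, 5.35 and 5.21 on the control arrays, 5.52, 5.82 and 6.05 after WGA and 5.60, 5.36 and 5.88 after starvation.

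In the lid, 7 of 7 subunits rose after WGA, within a narrow range from 0.93 to 1.16. Rpn11, the deubiquitinase, was at 7.04, 6.77 and 7.20 on the control arrays, 7.50, 8.19 and 8.09 after WGA and 6.98, 7.34 and 7.90 after starvation, a rise of 0.93 ± 0.24 (adjusted p = 0.0141). Its partner Rpn8 was at 5.77, 6.12 and 6.06 on the control arrays, 6.79, 7.21 and 6.94 after WGA and 6.32, 6.61 and 6.92 after starvation, a rise of 1.00 ± 0.20 (adjusted p = 0.00244). In both genes the WGA arrays lay above all control arrays. Rpn5 was at 7.19, 7.50 and 7.66 on the control arrays, 8.45, 8.75 and 8.63 after WGA and 7.82, 8.29 and 8.87 after starvation, the largest lid change at 1.16 ± 0.23 (adjusted p = 0.00212). Rpn3 was at 7.74, 8.03 and 7.97 on the control arrays, 8.69, 9.12 and 9.03 after WGA and 7.61, 8.25 and 8.81 after starvation, a rise of 1.04 ± 0.24 (adjusted p = 0.00699). Both are scaffold subunits of the lid, and starvation replicate 1 was the lowest treated array in each. Rpn7 was at 7.73, 7.49 and 7.38 on the control arrays, 8.42, 8.54 and 8.45 after WGA and 7.30, 7.75 and 8.31 after starvation, a rise of 0.94 ± 0.21 (adjusted p = 0.00612). Rpn6, which in yeast clamps the lid to the core, was at 5.47, 6.09 and 6.11 on the control arrays, 6.81, 6.87 and 6.90 after WGA and 5.44, 5.49 and 6.59 after starvation, a rise of 0.97 ± 0.29 (adjusted p = 0.0267). The WGA arrays of Rpn6 lay close together, while starvation replicate 1 was below all control arrays and replicate 2 among them. Rpn12 was at 7.40, 6.47 and 6.91 on the control arrays, 7.67, 8.24 and 7.86 after WGA and 6.33, 6.93 and 7.47 after starvation, a rise of 1.00 ± 0.29 (adjusted p = 0.0231).

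No subunit fell after WGA in any of 23 alternatives of the processing, and the 26 estimates lay above 0 with deposited, spike-in, median and loess scaling as well. Between 18 and 26 subunits were called over these alternatives, and 18 of the 24 calls held in all 23, those lost in at least 1 being Prosalpha4, Prosalpha7, Rpn6, Rpn11, Rpn12 and Rpt5. Rpt3 and Rpn2 passed the test too with the deposited and the spike-in scaling, under which the table as a whole had a median of 0.48 and 0.53. RNA integrity can be read from the eIF-4a controls, whose signal near the 3 prime end over that near the 5 prime end was 4.16, 5.71 and 3.60 for controls and 3.52, 2.75 and 3.08 for WGA. This ratio was lower on every WGA array than on any control array. The same ratio for GAPDH was 1.97, 2.70 and 2.92 against 2.25, 2.41 and 2.22, and for actin 1.44, 2.36 and 1.89 against 1.43, 1.49 and 1.17, so that these overlapped between the groups. What part RNA integrity has in the result was not tested. Of the 7 midgut epithelium markers 3 rose after WGA, mesh by 1.54 ± 0.17, Tsp2A by 1.51 ± 0.13 and Ssk by 1.00 ± 0.14, and 2 fell, Vha100-4 with -1.25 ± 0.18 and Jon65Aiv with -0.95 ± 0.14. Their summed signal, of which Jon65Aiv is the brightest, was 7841 to 8176 in controls, 5462 to 6778 with WGA and 8699 to 9069 with starvation, and that of the 7 visceral muscle markers was 2377 to 2883, 2553 to 4333 and 1653 to 2232. Their part in the result was not tested.

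Starvation was set against control to ask whether lack of food alone moves these genes, with the same control arrays as above on the other side, so that the changes in both treatments share their controls. Of the 26 subunits, 7 rose and 0 fell, with a median change of 0.40 (1.32-fold), while 8.12% of all tested probe sets rose and 7.09% fell. The estimate was above 0 for 23 of 26 subunits, and for 17 of 26 with median centring. The starved arrays lay above all control arrays for 7 of 26 subunits, against 15.2% of all tested probe sets. The genes that rose were Prosalpha2, Prosalpha3, Prosbeta6, Rpn1, Rpn5, Rpn8 and Rpn13. Rpn13 had the largest change, 1.02 ± 0.21 (adjusted p = 0.00524), followed by Rpn5 with 0.88 ± 0.23 (adjusted p = 0.0188) and Rpn1 with 0.82 ± 0.24 (adjusted p = 0.0363). Prosalpha3 had 0.78 ± 0.22 (adjusted p = 0.0299) and Prosalpha2 0.73 ± 0.18 (adjusted p = 0.0147). Rpn8 at 0.63 ± 0.20 (adjusted p = 0.0473) and Prosbeta6 at 0.50 ± 0.15 (adjusted p = 0.0410) were close to the threshold. The lowest estimates were those of Prosalpha4 at -0.12 ± 0.25, Rpn6 at -0.05 ± 0.29, Rpn12 at -0.01 ± 0.29 and Prosalpha7 at 0.04 ± 0.21, none of which passed the test. By class, 2 of 6 alpha, 1 of 6 beta, 0 of 4 ATPase, 2 of 3 other base and 2 of 7 lid subunits rose.

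**Figure D2:**
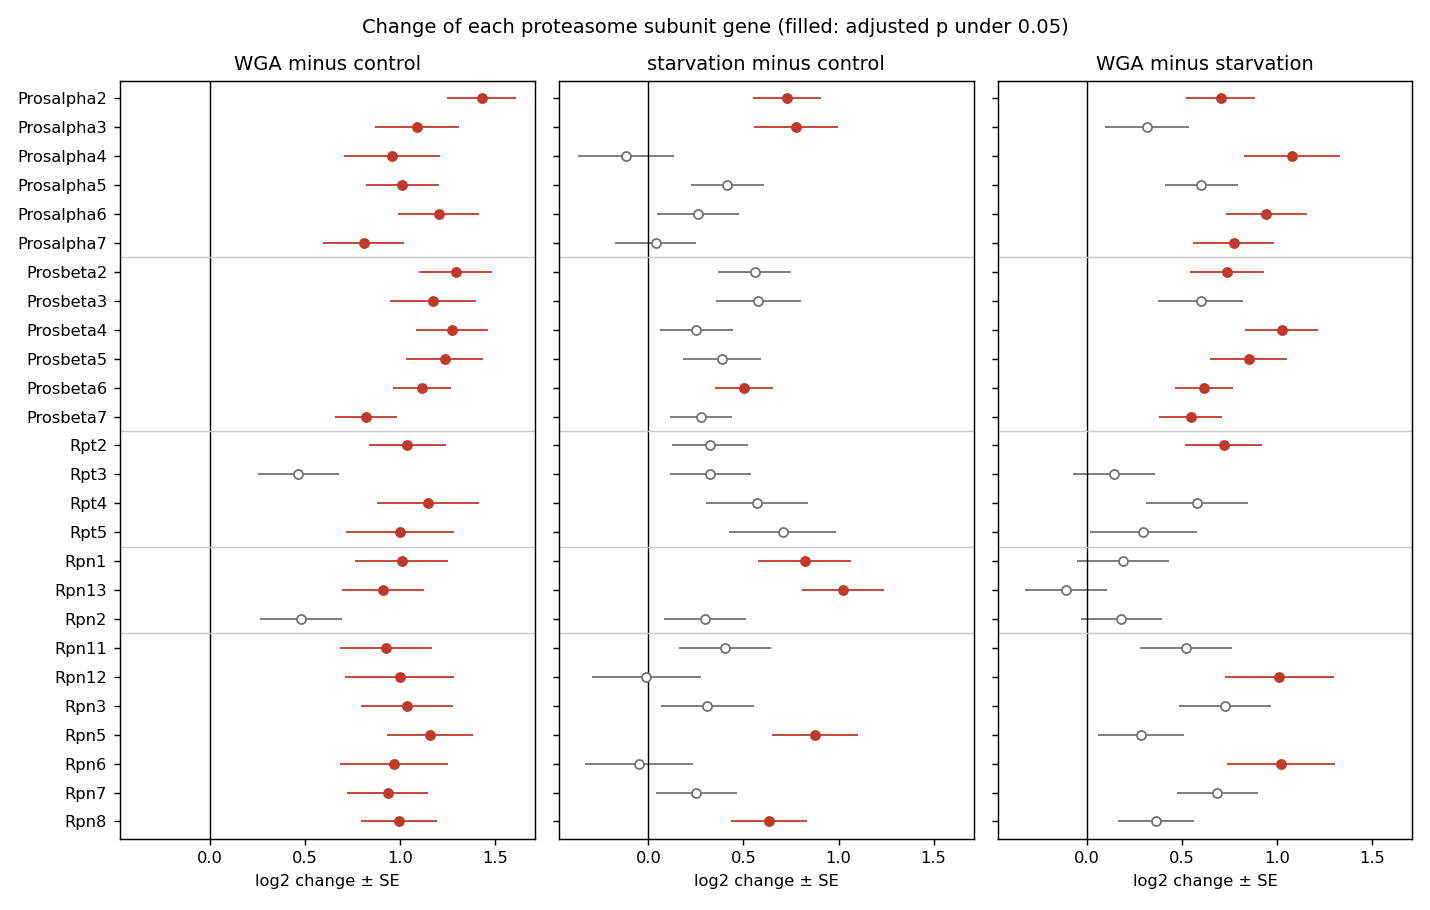
Log2 change ± SE (horizontal axes) of each of the 26 subunit genes (vertical axis, in the order of core alpha, core beta, base and lid) in the 3 comparisons, with red filled points where the adjusted p was under 0.05. WGA against control has 24 filled points, starvation against control 7 and WGA against starvation 12, and every filled point is above 0.

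The number called after starvation rested on single arrays. Without starvation replicate 1 it was 12, without starvation replicate 2 or 3 it was 1, and without control replicate 1 or 2 it was 1 or 2. It was also 1 with the deposited scaling, with median centring or without a trend in the variance prior, and 4 with no filter. Only the call of Rpn13 held in all 23 alternatives, with a change between 0.79 and 1.44 and an adjusted p between 0.00119 and 0.0443.

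The 3 starved pools were unlike each other in these genes. Averaged over the 26 subunits, the log2 signal was 7.31, 7.31 and 7.39 on the control arrays, 8.18, 8.52 and 8.37 on the WGA arrays, and 7.34, 7.74 and 8.21 on starvation replicates 1, 2 and 3. By this mean, starvation replicate 1 was within the range of the controls and starvation replicate 3 within that of the WGA arrays. The latter held for the regulatory subunits, at 7.79 against 7.52 to 7.94 with WGA. The mean of the core subunits was 8.70, below all WGA arrays at 8.94 to 9.20. On starvation replicate 3, 12 of 26 subunits reached at least the lowest WGA array, against 66.4% of all tested probe sets. All 26 subunits were higher on starvation replicate 3 than on replicate 1, by 0.28 to 1.24 (median 0.89), while 49.4% of all tested probe sets were higher there and their median difference was -0.01. Replicate 3 was the highest starved array for 25 of 26 subunits and replicate 1 the lowest for 25 of 26, the exceptions being Prosalpha4 and Rpn2. On starvation replicate 1, 8 of 26 subunits lay above all controls and 10 below all of them, and their median was within 0.01 of the control mean. On replicate 2, 21 lay above all controls (median 0.39), and on replicate 3, 25 did (median 0.81). For comparison, 30.1%, 31.1% and 31.5% of all tested probe sets lay above all controls on these 3 arrays. The 8 of 26 on replicate 1 is near that share. The share below all controls is not given here, so the 10 on replicate 1 stand without a background.

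**Figure D3:**
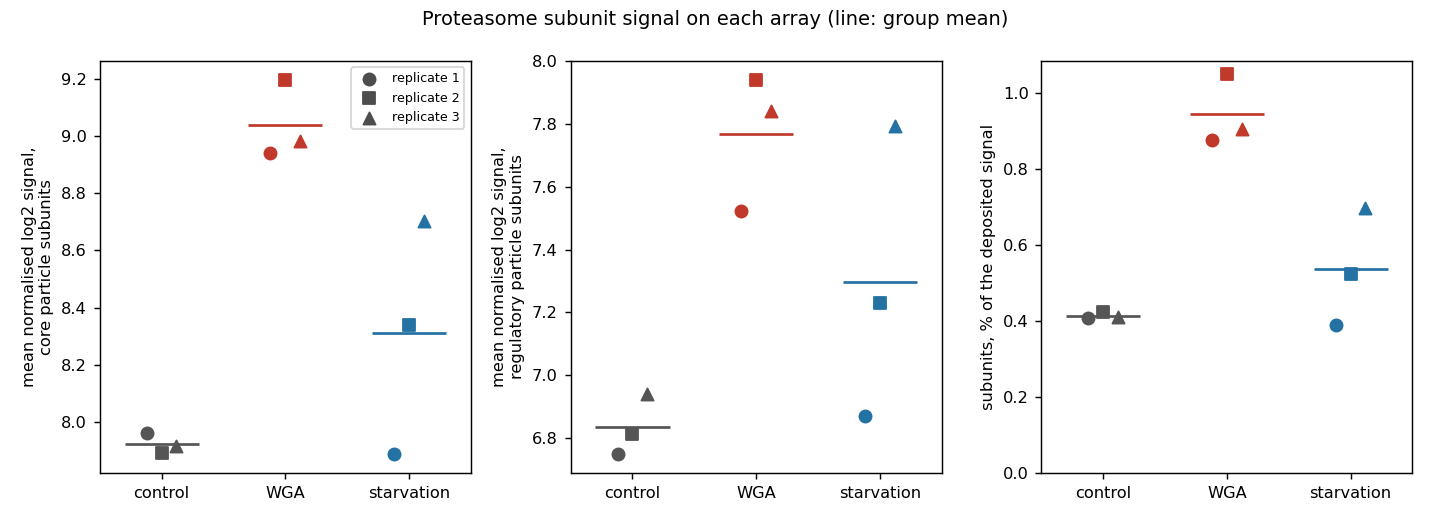
Mean normalised log2 signal of the 12 core subunits (left) and the 14 regulatory subunits (middle), and the subunits' share of the deposited signal in percent (right, from 0), for each array, with a line at the group mean. Control arrays sit together and WGA arrays lie above them, whereas starvation replicate 1 is near the controls. Starvation replicate 3 is among the WGA arrays for the regulatory subunits and below all of them in the left and right panels.

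The share of the deposited signal, which scales each array by its own total and not by quantiles, set the WGA arrays further apart. It is a sum of linear signals in which bright probe sets weigh most, whereas the mean log2 signal weighs all subunits equally. What part this weighting has in the difference was not tested. The 26 subunit probe sets held 0.408%, 0.423% and 0.410% of it on the control arrays, and 0.875%, 1.05% and 0.905% after WGA. On starvation replicates 1, 2 and 3 they held 0.389%, 0.524% and 0.697%. The share on every WGA array was more than that on any control or starved array, and starvation replicate 1 was below all controls. By the mean log2 signal, in contrast, starvation replicate 3 was above WGA replicate 1.

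**Figure D4:**
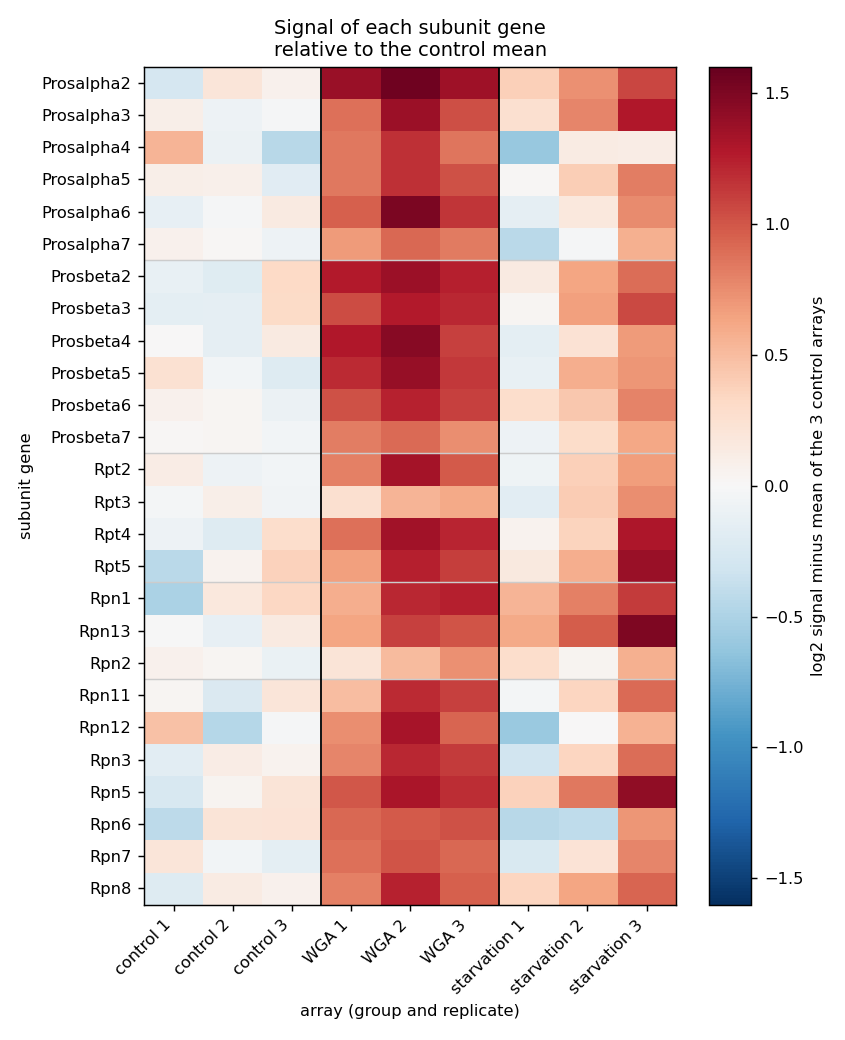
Log2 signal of each of the 26 subunit genes (rows) on each array (columns) minus the mean of the 3 control arrays, in red where higher and blue where lower. The WGA columns are red throughout. Of the starvation columns, replicate 1 mixes blue and red, from -0.61 to 0.61, and replicate 3 is red across both particles.

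Within the WGA group, too, the order of the arrays was much the same from subunit to subunit. WGA replicate 2 was above the group mean for 26 of 26 subunits and the highest array for 22, and replicate 1 was the lowest for 21. In the controls no array led, with 10, 5 and 11 subunits highest on replicates 1, 2 and 3. The same counts over all tested probe sets are not given here, so these stand without a background. After removal of the group means, the median correlation between 2 subunits over the 9 arrays of all groups was 0.78. It describes points that share arrays, normalisation and probe brightness, is not specific to the WGA group, and has no value for all tested probe sets beside it. The median SD over the 3 arrays of a group was 0.18 in controls, 0.19 after WGA and 0.45 after starvation, against 0.40, 0.27 and 0.36 over all tested probe sets. The tested probe sets were not matched to the subunits in brightness, on which the fit lets the variance depend. The eIF-4a ratio was 3.56, 3.46 and 2.83 on starvation replicates 1, 2 and 3, below that of every control array. It was lowest on the starved array and on the WGA array where the subunits were highest. The GAPDH ratio went the other way among the starved arrays, at 2.92, 3.31 and 3.35, and the actin ratio was 1.45, 1.44 and 1.51. The summed signal of the fat body markers was lowest on starvation replicate 1, as were Lsp2 and Fbp2 among the starved arrays but not Fbp1, with Lsp2 called higher in the group at 1.88 ± 0.52 (adjusted p = 0.0259). The part of these in the spread between the pools was not tested.

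WGA and starvation were then set against each other, a difference of group means in which the controls enter only through the shared estimate of the spread. Of the 26 subunits, 12 were higher after WGA and 0 lower, with a median difference of 0.61 (1.52-fold), while 5.94% of all tested probe sets were higher and 5.57% lower. The WGA arrays lay above all starved arrays for 14 of 26 subunits, against 15.7% of all tested probe sets. The core held 9 of the 12 (of 12 core subunits, median 0.72) and the regulatory particle 3 (of 14, median 0.44), a split that was not tested. Prosalpha4, at 1.08 ± 0.25 (adjusted p = 0.0122), Prosbeta4, at 1.02 ± 0.19 (adjusted p = 0.00272), Rpn6, at 1.02 ± 0.29 (adjusted p = 0.0343), and Rpn12, at 1.01 ± 0.29 (adjusted p = 0.0359), differed by more than 1 log2 unit. Prosalpha6, at 0.94 ± 0.21, and the proteolytic subunits Prosbeta5, at 0.85 ± 0.20, and Prosbeta2, at 0.74 ± 0.19, were also higher, as were Prosalpha7, Rpt2, Prosalpha2, Prosbeta6 and Prosbeta7 with differences of 0.55 to 0.77. The ubiquitin receptor Rpn13, at -0.11 ± 0.21 (adjusted p = 0.832), was the only subunit with an estimate below 0. Rpt3, Rpn2 and Rpn1 had estimates of 0.14 to 0.19 that did not pass the test.

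This count moved with the arrays too. It was 7, 1 and 5 without WGA replicate 1, 2 and 3, it was 3 without starvation replicate 1 or 2, and it was 18 without starvation replicate 3. It was 11, 9 and 11 without control replicate 1, 2 and 3, and 9 with only the groups compared. Prosbeta4 was the 1 call of 12 that held in all 23 alternatives, with a difference between 0.81 and 1.35.

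None of the 4 paralogs tested was called in any comparison. Of the 13 with a probe set, 9 did not pass the filter on dim probe sets, and the 4 that did (Prosalpha3T, Rpt3R, Rpt4R and Rpn13R) passed on 3 to 8 of the 9 arrays. Prosalpha3T was at 3.80, 3.61 and 2.71 on the control arrays, 3.05, 2.80 and 2.83 after WGA and 3.36, 2.89 and 2.98 after starvation, a change of -0.48 ± 0.40 after WGA (adjusted p = 0.446), where Prosalpha3 rose. Rpt4R was at 4.21, 3.82 and 3.20 on the control arrays, 2.67, 3.37 and 3.19 after WGA and 4.23, 3.28 and 3.10 after starvation, a change of -0.67 ± 0.41 (adjusted p = 0.292), where Rpt4 rose. Rpn13R was at 2.53, 1.70 and 3.28 on the control arrays, 1.91, 3.16 and 3.11 after WGA and 1.70, 2.75 and 3.41 after starvation, with estimates of 0.22 ± 0.60 after WGA and 0.12 ± 0.60 after starvation. Rpt3R was at 2.73, 3.27 and 3.33 on the control arrays, 2.51, 2.43 and 3.07 after WGA and 2.54, 1.78 and 1.15 after starvation. Its change after starvation, -1.29 ± 0.50, had adjusted p = 0.109. Its starved arrays were all below the controls, as for 14.2% of all tested probe sets. It passed the filter on 3 arrays, control replicates 2 and 3 and WGA replicate 3, and all its starved values were under the filter level. All 3 groups overlapped in Prosalpha3T, Rpt4R and Rpn13R. The 9 paralogs below the filter were Prosalpha4T1, Prosalpha4T2, Prosalpha6T, Prosbeta2R1, Prosbeta2R2, Prosbeta4R1, Prosbeta4R2, Prosbeta5R1 and Rpn12R. Of the 8 testis markers listed, 3 passed the filter (Mst87F, Mst98Ca and Mst98Cb) and none was called in any comparison.

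Genes that assemble, open or assist the proteasome rose in part. In this list of 8, 4 rose after WGA, 0 after starvation and 3 were higher after WGA than after starvation, with medians of 0.79, 0.11 and 0.68. The shares of all tested probe sets were 11.6%, 8.12% and 5.94%, and 0 of 8 after starvation is near the 8.12%. Sem1, a small lid subunit that the symbol rule does not take in, rose by 0.83 ± 0.20 after WGA (adjusted p = 0.00824). Usp14, a deubiquitinase whose yeast counterpart binds Rpn1, rose by 1.34 ± 0.24 (adjusted p = 0.00115) on the brighter of its probe sets, CG12321 by 1.34 ± 0.23 (adjusted p = 0.000706) and the proteasome regulator PI31 by 0.77 ± 0.23 (adjusted p = 0.0305). The dimmer probe set of Usp14 had -0.73 ± 0.63, which did not pass the test (adjusted p = 0.466). The core maturation factor Pomp had 0.51 ± 0.22 (adjusted p = 0.115) and the deubiquitinase Uch-L5, which binds Rpn13, 0.82 ± 0.30 (adjusted p = 0.0726). REG, the activator that replaces the regulatory particle, had -0.16 ± 0.22 and CG9588 -0.14 ± 0.21, neither past the threshold.

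Among ubiquitin genes, shuttle receptors and the unfoldase TER94, 7 of 11 rose after WGA and 3 after starvation. After WGA, 4 were higher than after starvation, and the medians of these comparisons were 0.74, 0.52 and 0.68. Of all tested probe sets, 11.6% and 8.12% rose and 5.94% were higher after WGA than after starvation. The polyubiquitin genes Ubi-p63E and Ubi-p5E rose by 1.34 ± 0.16 (adjusted p = 4.51e-05) and 1.11 ± 0.17 (adjusted p = 0.000399) after WGA. Ubi-p63E also rose after starvation, by 0.55 ± 0.16 (adjusted p = 0.0366), whereas Ubi-p5E had 0.21 ± 0.17, not past the threshold. RpS27A and RpL40, which encode ubiquitin fused to ribosomal proteins, had 0.12 ± 0.14 and 0.32 ± 0.12, not past the threshold, while RpL40 rose after starvation by 0.52 ± 0.12 (adjusted p = 0.00776). TER94, which extracts ubiquitinated proteins for the proteasome, rose by 1.39 ± 0.16 (adjusted p = 3.27e-05), its cofactors Ufd1 by 0.74 ± 0.25 and p47 by 0.72 ± 0.22, and the shuttle gene Rad23 by 1.24 ± 0.26. The largest change was that of ref(2)P, the autophagy receptor for ubiquitinated proteins, which rose by 2.86 ± 0.29 after WGA and by 1.64 ± 0.29 after starvation (adjusted p = 8.36e-06 and 0.00149).

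Of the 5 genes listed for the control of proteasome transcription, maf-S, the partner of cnc, rose in both treatments, by 0.70 ± 0.20 after WGA (adjusted p = 0.0239) and 1.15 ± 0.20 after starvation (adjusted p = 0.00150). The brightest of the 4 probe sets of cnc had -0.53 ± 0.31 and -0.58 ± 0.31, and the other one tested had 0.32 ± 0.30 and 0.52 ± 0.30, none past the threshold. Those estimates differ in sign, the other 2 were too dim to be tested, and which isoforms each detects is not given. Its inhibitor Keap1 had 1.05 ± 0.49 and 1.33 ± 0.49, the protease gene rngo 0.15 ± 0.24 and 0.38 ± 0.24, and the deglycosylase gene Pngl 0.33 ± 0.26 and 0.49 ± 0.26, none past the threshold.

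Other large complexes are given for scale, with no test between lists. Of the 8 subunits of the CCT chaperonin, which folds actin and tubulin, 8 rose after WGA (median 0.95) and 0 after starvation (median -0.33, against 0.40 for the proteasome subunits). Of the 8 subunits of the COP9 signalosome, which is built like the lid, 1 rose in each treatment, CSN4, with medians of 0.38 and 0.09, a share near the 11.6% and 8.12% of all tested probe sets. Of 10 genes for cullin ligases and NEDD8, 3 rose after WGA (Roc1a, SkpA and Nedd8) and 0 after starvation, with medians of 0.38 and -0.05.

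**Figure D5:**
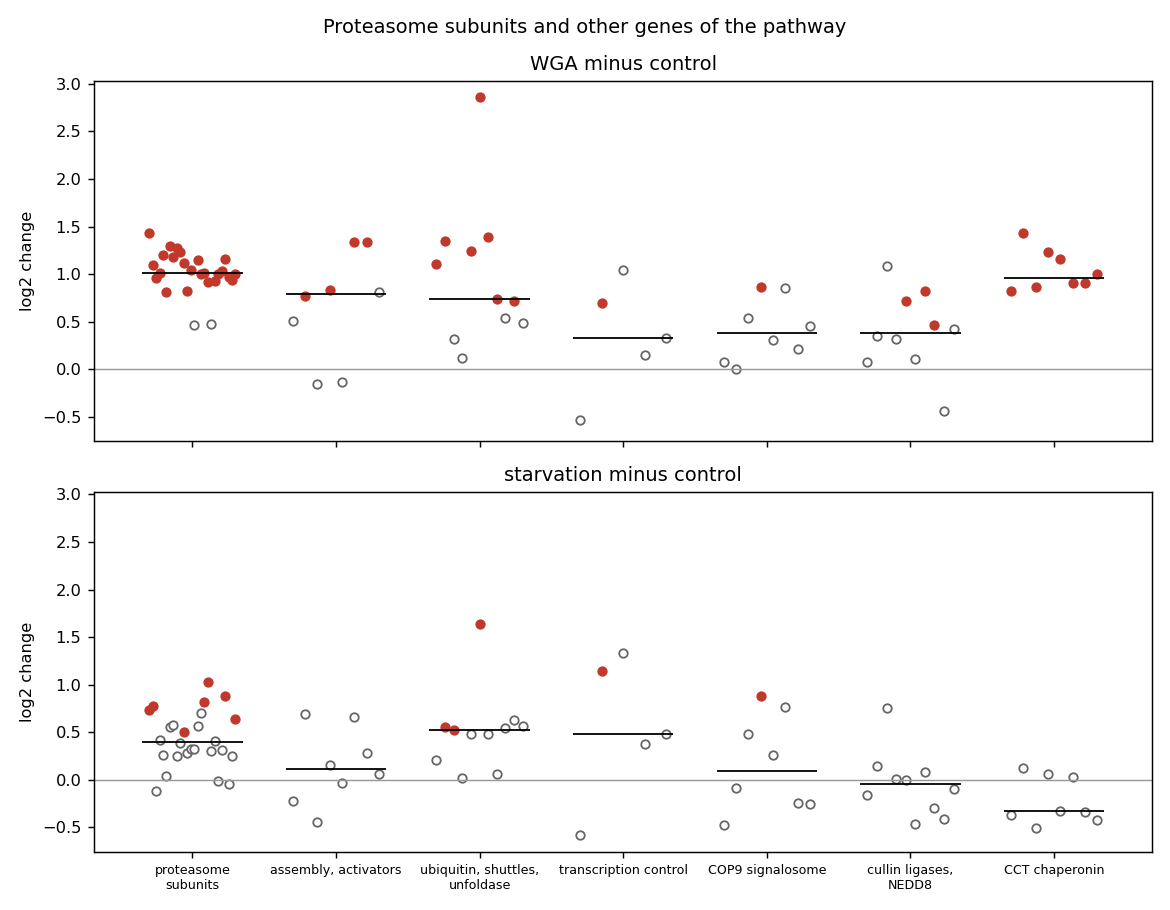
Log2 change (vertical axes) of each tested gene in the 26 proteasome subunits and the 6 other lists, after WGA (top) and after starvation (bottom), with red filled points where the adjusted p was under 0.05 and a line at each list's median. The subunit median is 1.01 in the upper and 0.40 in the lower panel, and the CCT chaperonin has 8 filled points above and none below.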

How the data were processed

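The authors deposited linear signal intensities, 1 for each probe set on each array, made with the Affymetrix software GCOS per the submitters' processing notes. How GCOS was set is not given, and 2% trimmed array means differed up to 1.90-fold. The 44 control probe sets were left out, 1.72 (the 20th percentile) was added, and log2 values were quantile normalised, which removes any difference in total signal. Probe sets above the 40th percentile (log2 2.79) on at least 3 of 9 arrays were tested, 9675 of 13966. Annotation gave 1 gene for 12443 probe sets, of which 12393 matched the reference table of symbols, several genes for 327 and none for 1197. The brightest tested probe set stood for a gene.

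Group means of all 9 arrays were fitted with limma 3.58.1 (lmFit, eBayes with a trend) in R 4.3.3, with Benjamini-Hochberg adjustment over all tested probe sets and a threshold of 0.05. The fit was also run on simulated data with independent noise for each probe set. That run does not cover counts of genes that vary together, as the subunits do. Every member is accounted for, and array values are printed for all tested members, which is more than the extremes of each class that the rule for named genes asks for. Further genes come from lists of the pathway and of cell types. The members, lists, tests and alternatives were chosen with earlier results of these data known, and no set test was run. No table of promoter or protein sequences was used here.

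The 23 alternatives were the deposited scaling, cyclic loess, median centring, scaling on 9 spike-in probe sets, offsets at the 10th and 30th percentile, no filter, a filter at the 60th percentile, no trend, a fit of only the groups compared, array weights, a replicate block, the median probe set per gene, a minimum change of 1.5-fold and each array left out in turn.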

Additional observations from a re-analysis of the deposited data

How the results depend on the processing

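WGA against control kept between 18 and 26 called subunits over the 23 alternatives, with 18 to 24 when 1 array was left out. For starvation against control the count of 7 became 4 with no filter and 1 under each of deposited scaling, median centring and no trend, and 1 to 12 when 1 array was left out. For WGA against starvation the count of 12 was 4 with spike-in scaling and 1 without a trend, and 1 to 18 when 1 array was left out. With 1 array left out the counts went down in some fits and up in others, and the cause of these shifts was not tested. No called change turned its sign in any alternative. The median change of the 30 tested members went from 1.00 to 1.37 with the deposited and 1.43 with spike-in scaling after WGA, from 0.32 to 0.72 with spike-in scaling after starvation, and from 0.60 to 1.08 with the deposited scaling between the treatments, while that of the whole table shifted to 0.48, 0.53, 0.53 and 0.35. Residuals of arrays from different groups correlated at -0.04 to 0.10 with the same replicate number and at -0.13 to 0.06 with different numbers. These ranges overlap and do not show whether the samples are paired. A fit with a replicate block called 24, 10 and 16 subunits, against 24, 7 and 12 without it. With 1 array left out of a group of 3, the error rests on the other arrays. Signal near the filter limits the paralogs, whose absence from the calls does not show that they were unchanged.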

Other observations

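The probe set that is annotated to both Prosalpha1 and Prosalpha1R, left out by the rule because it names 2 genes, was at 8.31, 8.20 and 7.93 on the control arrays, 9.23, 9.51 and 9.17 after WGA and 7.99, 8.59 and 9.06 after starvation. Its change was 1.15 ± 0.23 after WGA (adjusted p = 0.00204) and 0.40 ± 0.23 after starvation (adjusted p = 0.282), and it was 0.76 ± 0.23 higher after WGA than after starvation (adjusted p = 0.0454). Starvation replicate 3 was the highest starved array here too, as for 25 of the 26 subunits with a probe set of their own.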
